A study of Mus musculus with 6 samples.

Results

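The genes examined here make, break down or sense prostaglandins and leukotrienes, the lipid signals formed from arachidonic acid. The 9 genes were Pla2g4a, Ptgs1, Ptgs2, Ptges, Hpgds, Hpgd, Ptger4, Alox5 and Alox5ap, and the measurement was the accessibility of the chromatin around them. Of 55056 windows of 200 bp counted by ATAC-seq, 47 were assigned to these genes, because the nearest end of any protein-coding gene was an end of a member and lay within 100 kb. Of these 47 windows 18 lay inside a gene body and 29 outside. Hpgd had 12 windows, Pla2g4a 10, Ptgs2 7, Ptges and Ptger4 4 each, Ptgs1 and Alox5ap 3 each, and Hpgds and Alox5 2 each. The nearest gene is a name for a position and need not be the gene that a window serves.

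ATAC-seq uses the transposase Tn5 to cut and tag open DNA, so that read counts follow how accessible a stretch of chromatin is. Both groups were organoids, self-organising epithelial cultures, of 1 line from the small intestine of a female mouse carrying the Lgr5GFPDTR/+ allele (line26 wild type). The treated group received RANKL, the TNF family cytokine that drives microfold (M) cell differentiation, at 100 ng/ml for 6 days, and followed 3 days with 3 µM CHIR99021 and 1.5 mM valproic acid and 1 day in ENR. Control organoids were kept in ENR, which holds EGF, Noggin and R-spondin 1, and the labels do not say whether they had received CHIR99021 and valproic acid. The names of the control libraries begin with CVENR, which no label explains. Unless the controls had it too, RANKL and that earlier exposure to CHIR99021 and valproic acid cannot be told apart here. Each group had 3 libraries of 50000 cells, from separate differentiation experiments on the same line. Library totals ran from 322173 to 976881 counts, so 3 counts were worth 3.00 to 9.26 CPM, the unit used throughout for counts scaled to library size. Between 3.93% and 18.0% of windows had no count in a library. At similar totals the RANKL libraries had fewer empty windows. RANKL replicate 2 (466521 counts) had 9.06%, against 16.2% for control replicate 3 (455083). RANKL replicate 3 (828445 counts) had 3.93%, against 7.43% for control replicate 1 (920681). The part of this in the higher RANKL values of low windows was not tested.

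Cytosolic phospholipase A2, encoded by Pla2g4a, frees arachidonic acid from membranes. The cyclooxygenases Ptgs1 and Ptgs2 turn it into prostaglandin H2, from which Ptges makes prostaglandin E2 and Hpgds makes prostaglandin D2. Hpgd, 15-hydroxyprostaglandin dehydrogenase, begins the breakdown of prostaglandin E2, and Ptger4 encodes EP4, a receptor for it. Alox5 and its partner protein Alox5ap open the other branch, which leads to leukotrienes. In the intestine prostaglandin E2 acts on epithelial growth and repair through EP4, Hpgd is a gene of mature epithelium, and tuft cells are known for expressing Ptgs1, Hpgds, Alox5 and Alox5ap.

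Only 4 of the 47 windows overlapped a promoter that RefSeq lists for a member, taken as 250 bases before to 50 after a start, and these sequences are shown because the windows are tied most directly to a gene. A RefSeq promoter (GRCm38.p6) was found for 8 of the 9 genes, Alox5ap being the exception. Each sequence holds the 250 bases before the start on the gene's own strand, 5′ to 3′, and capitals mark the bases inside the 200-bp window. Window numbers follow chromosome position.
Pla2g4a window 9, first start, chr1:149961291-149961540, minus strand: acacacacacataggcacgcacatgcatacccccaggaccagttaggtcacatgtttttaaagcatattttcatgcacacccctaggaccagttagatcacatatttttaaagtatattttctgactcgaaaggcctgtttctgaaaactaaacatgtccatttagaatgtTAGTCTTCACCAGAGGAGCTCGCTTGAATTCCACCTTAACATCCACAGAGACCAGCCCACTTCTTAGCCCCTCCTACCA
Pla2g4a window 8, second start, chr1:149922440-149922689, minus strand: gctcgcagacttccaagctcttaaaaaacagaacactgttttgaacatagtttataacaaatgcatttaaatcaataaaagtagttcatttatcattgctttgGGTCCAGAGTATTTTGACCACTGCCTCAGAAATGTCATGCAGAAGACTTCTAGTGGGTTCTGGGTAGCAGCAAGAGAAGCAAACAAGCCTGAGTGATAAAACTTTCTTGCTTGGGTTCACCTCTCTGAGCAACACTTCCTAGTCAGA
Hpgds window 1, chr6:65144731-65144980, minus strand: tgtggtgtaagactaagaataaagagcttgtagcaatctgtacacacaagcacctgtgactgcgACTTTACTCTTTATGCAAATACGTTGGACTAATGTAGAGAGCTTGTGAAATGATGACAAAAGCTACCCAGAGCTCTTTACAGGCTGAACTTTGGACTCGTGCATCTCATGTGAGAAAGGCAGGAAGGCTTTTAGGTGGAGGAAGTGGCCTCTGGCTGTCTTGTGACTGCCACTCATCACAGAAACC
Hpgd window 5, chr8:56294302-56294551, plus strand: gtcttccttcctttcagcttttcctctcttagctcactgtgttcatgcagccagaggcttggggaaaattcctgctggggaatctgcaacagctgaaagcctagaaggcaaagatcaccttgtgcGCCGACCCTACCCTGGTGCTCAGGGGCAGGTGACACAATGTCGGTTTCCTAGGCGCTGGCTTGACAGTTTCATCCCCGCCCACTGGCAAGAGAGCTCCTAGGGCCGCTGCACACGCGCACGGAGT
The Hpgd sequence was 56.8% G and C, and those of Pla2g4a and Hpgds were 43.2%, 39.6% and 45.2% in the order shown, against a median of 52.4% over all 32851 RefSeq starts. Of 4 motifs searched on both strands, the first Pla2g4a start held the nuclear receptor element AGGTCA once, which 14.0% of all such sequences hold. The second Pla2g4a start held 1 TATAAA, the letters of a TATA box (12.4% of all), and 1 ATTGAT, the core of ONECUT sites (6.72% of all). Both of these were on the strand opposite to the one printed. TGANTCA of AP-1 (6.75% of all) was in none of the 4 sequences. All the matches lay in lower-case bases, outside the 200-bp windows. These matches describe letters only. Of the 4 windows, 3 were deep enough to test and 2 of those, both of Pla2g4a, were called lower, where 2.75% of the 6824 tested windows over any RefSeq promoter were called lower and 9.75% higher. Both called windows passed the depth filter through their control libraries, and the genes were picked with the RANKL contrast in view. The count is therefore a description of these windows only.

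The members did not move together. The windows around Pla2g4a, Hpgd, Hpgds and Ptger4 held fewer counts in RANKL organoids than in controls, those around Ptges held more, and those around Ptgs1, Ptgs2 and Alox5ap differed by less than the fit could call. The genes were picked with this contrast in view, so the values that follow describe them and carry no p-value. In the edgeR quasi-likelihood fit over all windows, with a threshold of 0.05 on the adjusted p, 16 of the 47 member windows were deep enough to test. Of the 16, 6 were called lower, 0 higher and 10 were not called, while 10.0% of all tested windows were called lower and 10.0% higher. A window could pass the depth filter through a single group. The called windows of Pla2g4a, Hpgd and Hpgds would not have passed on their RANKL libraries alone. Low windows of Ptges and Ptgs2 with a higher RANKL mean failed the filter, so these counts of calls depend in part on it. The median log2 fold change of those 16 was -0.60, and it was 0.01 over all 21618 windows tested. Counting all 47, the RANKL mean was lower in 30 and higher in 17. In 11 windows every RANKL library lay below every control and in 4 every one lay above, against 11.6% and 13.6% of all windows. The bulk libraries cannot tell a smaller share of cells with a given open region from less opening in each cell.

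Counts were also summed over the windows of each gene. Of the 8 member sums deep enough to test, Pla2g4a, Hpgd, Hpgds and Ptger4 were called lower and Ptges was called higher, where 8.81% of all tested gene sums were called lower and 7.28% higher. The groups were apart in 3 sums that were lower and 1 that was higher, against 14.5% and 13.8% of all gene sums. A sum depends on how many windows a gene has, so sums compare libraries and not genes.

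**Figure D1:**
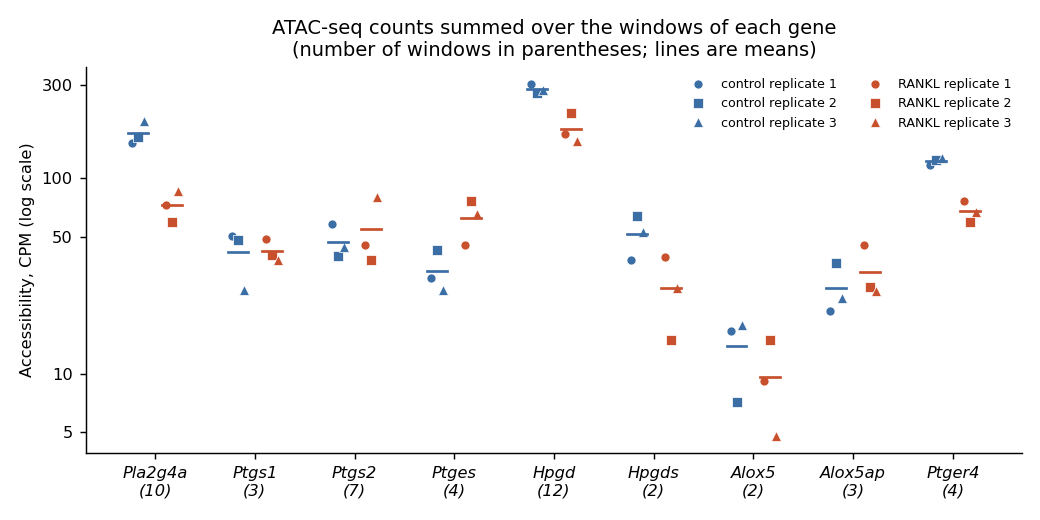
Summed accessibility of the 9 genes in each of the 6 libraries, in CPM on a log axis; symbols are libraries, horizontal lines are group means (n = 3), and the number of windows is in parentheses. For Pla2g4a, Hpgd and Ptger4 the 3 RANKL libraries lie below the 3 controls, for Ptges they lie above, and for the other genes the groups overlap.

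Pla2g4a, the phospholipase at the head of the pathway, had the most negative log2 fold change of the 8 sums tested. Its 10 windows summed to 152, 163 and 198 CPM in control replicates 1, 2 and 3 and to 73.4, 59.8 and 86.5 CPM in RANKL replicates 1, 2 and 3. The groups did not overlap, and the log2 fold change was -1.14 ± 0.17 (SE, n = 3 per group). Most of the difference sat in 3 of the 10 windows, which were the 3 deep enough to test, and all were called lower. All 3 passed the depth filter through their control libraries, so being tested was not independent of being lower with RANKL. Window 9, over the first RefSeq start at chr1:149961170-149961369, read 21.7, 33.0 and 21.4 CPM in controls and 6.17, 4.39 and 11.2 CPM with RANKL, a log2 fold change of -1.67 ± 0.48 that was no longer called without control replicate 2 (-1.45) or with DESeq2 (-1.70). Window 8, over the second start 38851 bp further along the gene, at chr1:149922387-149922586, read 43.5, 35.0 and 42.8 CPM in controls and 15.4, 4.39 and 14.9 CPM with RANKL (log2 fold change -1.73 ± 0.39). Windows 9 and 8 were therefore both lower in every RANKL library than in any control. They cover 79 and 147 of the 250 promoter bases shown above, in that order. Window 4, at chr1:149862939-149863138, lay inside the gene body, 59401 bp downstream of the nearer start, and was the strongest of the gene. It read 37.0, 29.0 and 57.8 CPM in controls and 18.5, 2.19 and 16.2 CPM with RANKL (log2 fold change -1.62 ± 0.39). The other 7 windows were too low to test, with group means of 15.4 CPM or less, and the groups were apart in 1 of them. That one, window 6, read 13.0, 16.0 and 17.1 CPM in controls and 6.17, 11.0 and 8.70 CPM with RANKL.

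**Figure D2:**
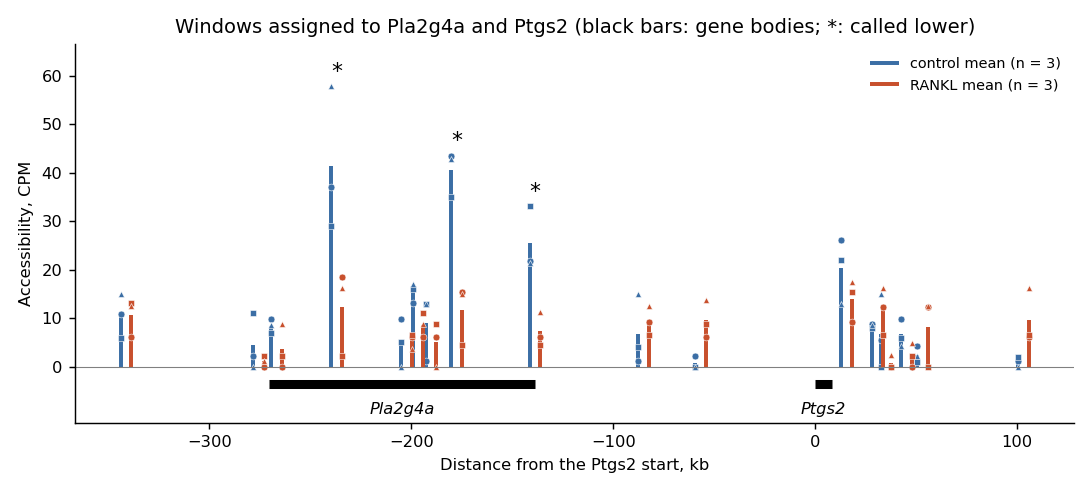
CPM of each window assigned to Pla2g4a (10) and Ptgs2 (7), plotted against distance from the Ptgs2 start in kb; bars are group means, symbols are single libraries (circle, square and triangle for replicates 1, 2 and 3), and asterisks mark windows called lower. The 3 called windows all lie inside the Pla2g4a body, and the interval between the genes holds only low windows.

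Ptgs2, the inducible cyclooxygenase, is the next gene along chromosome 1, with 138740 bp between the 2 gene bodies. That interval held 2 member windows, and neither was deep enough to test. Window 10 of Pla2g4a, 53392 bp outside the gene, read 1.09, 4.00 and 15.0 CPM in controls and 9.26, 6.58 and 12.4 CPM with RANKL, so the groups overlapped. Window 1 of Ptgs2, 56894 bp outside that gene at chr1:150042938-150043137, read 2.17, 0 and 0 CPM in controls and 6.17, 8.78 and 13.7 CPM with RANKL. Those values rest on a handful of counts in each library, but the groups were apart. No window lay over the Ptgs2 start. The nearest and strongest one, window 2, lay 7244 bp beyond the far end of the gene and read 26.1, 22.0 and 12.9 CPM in controls and 9.26, 15.4 and 17.4 CPM with RANKL, a log2 fold change of -0.51 ± 0.44 that was not called. Window 7, 94834 bp outside, was the member window closest to the distance limit of 100 kb. It read 1.09, 2.00 and 0 CPM in controls and 6.17, 6.58 and 16.2 CPM with RANKL. The closest window beyond the limit belonged to Hpgds, 105906 bp away, with 1.09, 3.00 and 2.14 CPM in controls and 3.09, 19.8 and 3.73 CPM with RANKL.

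Summed over its 7 windows, Ptgs2 read 58.2, 39.9 and 44.5 CPM in controls and 45.9, 38.4 and 80.5 CPM with RANKL. RANKL replicate 3 stood above the other 5 libraries, and the log2 fold change of 0.31 ± 0.24 became -0.20 without it. The sign also turned when only nearer windows were summed, to -0.24 within 50 kb and -0.61 within 10 kb, where windows 1 and 7 are no longer counted. No direction can be given for Ptgs2 from these sums.

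Ptgs1, the constitutive cyclooxygenase, had sums of 50.5, 48.1 and 26.7 CPM in controls and 48.9, 40.6 and 38.4 CPM with RANKL. The RANKL libraries lay within the range of the controls, and the log2 fold change was -0.08 ± 0.28. Window 1, at chr2:36214000-36214199 and 2543 bp outside the gene body, held most of these counts and was not called (log2 fold change -0.37 ± 0.34). Its centre lay at -16327 bp from the nearest RefSeq start, where minus means upstream. Window 2, inside the gene, read 3.26, 0 and 0 CPM in controls and 6.17, 15.4 and 4.97 CPM with RANKL, too low to test though the groups were apart. The RefSeq start of Ptgs1 had no window over it.

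Ptges, which encodes the inducible synthase of prostaglandin E2, was the member called higher. Its 4 windows summed to 30.7, 43.0 and 26.7 CPM in controls and to 45.9, 76.9 and 66.1 CPM with RANKL. Every RANKL library exceeded every control, RANKL replicate 1 by the least, and the log2 fold change was 0.89 ± 0.26. The call was lost without control replicate 1 (0.79), without RANKL replicate 2 (0.76) and without RANKL replicate 3 (0.87), and DESeq2 did not make it (0.90). The strongest window, number 2 at chr2:30920286-30920485, differed little, with 19.6, 26.0 and 21.4 CPM in controls and 18.5, 35.1 and 23.6 CPM with RANKL (log2 fold change 0.20 ± 0.38, not called). More of the difference came from the other 3 windows, which were too low to test. Window 4, 2654 bp outside the gene body, read 0, 2.00 and 2.14 CPM in controls and 18.5, 2.19 and 14.9 CPM with RANKL. Its centre lay at -30476 bp from the nearest RefSeq start, where minus means upstream. The centre of window 3 lay at -26392 bp and that of window 1 at 5764 bp. Window 1 averaged 3.77 ± 2.80 CPM in controls and 13.9 ± 13.2 CPM with RANKL (SD, n = 3), and window 3, the nearest to a gene end, 5.23 ± 4.61 and 13.1 ± 6.9 CPM, both with overlapping groups.

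Hpgds, the haematopoietic prostaglandin D synthase, was called lower but rested on few libraries. Its 2 windows summed to 38.4, 64.5 and 53.4 CPM in controls and 39.8, 14.9 and 27.6 CPM with RANKL. RANKL replicate 1 overlapped control replicate 1, and the log2 fold change was -0.97 ± 0.31. The call was lost without control replicate 2 (-0.74), RANKL replicate 2 (-0.73) or RANKL replicate 3 (-1.03), and with DESeq2 (-0.97). Window 2, at chr6:65157360-65157559 and 12379 bp outside the gene, carried the call. It read 26.1, 44.0 and 38.6 CPM in controls and 24.7, 11.0 and 16.2 CPM with RANKL, a log2 fold change of -1.12 ± 0.37. Here too the call depended on the same 3 libraries, with -0.94, -0.95 and -1.08 when each was left out in that order. The promoter window shown above, window 1, was too low to test, with 14.6 ± 3.8 CPM in controls and 10.8 ± 5.7 CPM with RANKL.

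Hpgd, whose enzyme inactivates prostaglandin E2, had the highest sum of the members and was called lower. Its 12 windows summed to 304, 274 and 285 CPM in controls and to 168, 218 and 155 CPM with RANKL. The lowest control lay above the highest RANKL library, and the log2 fold change was -0.70 ± 0.12. The RANKL mean was the lower of the pair in 11 of the 12 windows. Window 6, inside the gene at chr8:56304667-56304866 and 10214 bp downstream of the start, was called lower. It read 26.1, 33.0 and 21.4 CPM in controls and 6.17, 8.78 and 3.73 CPM with RANKL (log2 fold change -2.23 ± 0.52). The RANKL values rest on counts of 2, 4 and 3. This window passed the depth filter through its control libraries, so being tested was not independent of being lower with RANKL. The promoter window, number 5 at chr8:56294427-56294626, was the strongest of the gene and narrowly spread. It read 48.9, 47.0 and 47.1 CPM in controls and 24.7, 30.7 and 31.1 CPM with RANKL, yet its log2 fold change of -0.69 ± 0.28 was not called at 200 bp.

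None of the windows outside the Hpgd body was called at 200 bp, and in several of them the groups overlapped. Window 4, 16155 bp before the gene, read 45.7, 29.0 and 40.7 CPM in controls and 30.9, 41.7 and 32.3 CPM with RANKL, with overlapping groups, although over 2 kb it was called lower, as given further on. Windows 8 and 10, beyond the far end, had log2 fold changes of -0.29 ± 0.31 and -0.17 ± 0.31 with overlapping groups. The farthest, window 12 at 86299 bp, read 14.1, 20.0 and 6.43 CPM in controls and 0, 0 and 3.73 CPM with RANKL, and windows 2 and 3 before the gene were likewise lower in every RANKL library than in any control. These last 3 windows were too low to test.

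**Figure D3:**
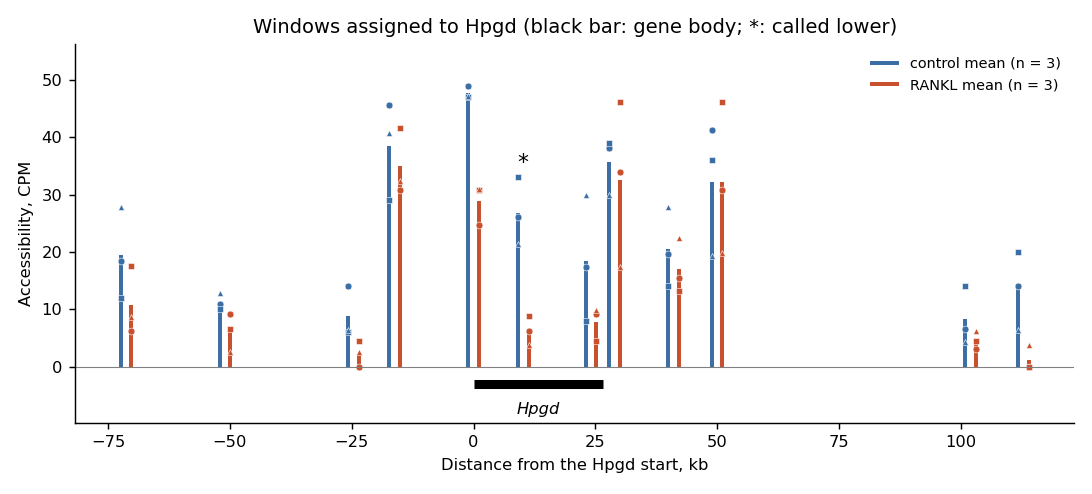
CPM of the 12 windows assigned to Hpgd against distance from its start in kb; bars are group means (n = 3), symbols are single libraries, the black bar is the gene body and the asterisk marks the window called lower. At the start and in the called window the RANKL libraries lie below the controls, and at about 50 kb downstream the groups overlap.

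Ptger4, the EP4 receptor gene, was called lower and its main window had the smallest SE of the 6 called. Summed over 4 windows it read 118, 125 and 127 CPM in controls and 76.5, 59.8 and 67.3 CPM with RANKL, a log2 fold change of -0.87 ± 0.19. Most of the difference lay in window 2, at chr15:5244655-5244854, 468 bp outside the gene on the side of its RefSeq start. This window had the highest mean of all 47, with 71.8, 81.0 and 77.1 CPM in controls and 43.2, 26.3 and 33.5 CPM with RANKL. The groups were well apart, and the log2 fold change was -1.19 ± 0.23. Window 3, 16124 bp outside, read 25.0, 21.0 and 32.1 CPM in controls and 21.6, 17.6 and 16.2 CPM with RANKL, and was not called (-0.49 ± 0.41). Ptger4 borders a long interval without protein-coding genes, and most of the 13 windows whose nearest gene was a member but which lay beyond 100 kb were on this side of it.

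No direction could be called for the 2 leukotriene genes among the members. Alox5, the lipoxygenase itself, had 2 windows, both inside the gene, with sums of 16.5, 7.17 and 17.8 CPM in controls and 9.18, 14.9 and 4.80 CPM with RANKL. The groups overlapped and the sum was too low to test. Alox5ap, which presents arachidonic acid to that enzyme, summed to 20.9, 36.9 and 24.5 CPM in controls and 45.9, 27.8 and 26.4 CPM with RANKL. Its log2 fold change of 0.17 ± 0.36 was not called, and it became -0.027 without control replicate 1 and -0.057 without RANKL replicate 1. None of the 5 windows of these 2 genes was deep enough to test, so a difference in a single one was not detectable at this depth.

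Counts over 2 kb around the same centres gave a wider view, at 45 of the 47 windows with enough counts to test. They include the 200-bp reads and are no separate evidence. At this width 9 member windows were called lower and 5 higher, against 10.2% and 8.39% of all tested 2-kb windows. All 6 windows called lower at 200 bp were among the 9, with log2 fold changes from -1.54 to -0.76, and the other 3 were windows 4, 5 and 7 of Hpgd. Window 4 read 48.0, 38.5 and 55.2 CPM over 2 kb in controls and 22.2, 32.5 and 32.8 CPM with RANKL, so that the groups were apart at this width (log2 fold change -0.61 ± 0.20). The Hpgd promoter window read 65.7, 71.5 and 62.5 CPM over 2 kb in controls and 35.6, 37.4 and 39.9 CPM with RANKL (log2 fold change -0.82 ± 0.17). The 5 windows called higher belonged to Ptges and Ptgs2.

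For Ptges, windows 1, 3 and 4 were called higher over 2 kb, and every RANKL library exceeded every control in each. Window 1 read 2.27, 6.69 and 2.76 CPM in controls and 13.3, 25.4 and 16.0 CPM with RANKL (log2 fold change 2.13 ± 0.43). Windows 3 and 4 had log2 fold changes of 1.75 ± 0.36 and 1.99 ± 0.45, and window 2 of 0.08 ± 0.30. For Ptgs2, window 1 in the interval towards Pla2g4a read 3.17, 3.76 and 1.84 CPM in controls and 15.6, 12.7 and 11.8 CPM with RANKL (log2 fold change 2.06 ± 0.53). Window 7 of Ptgs2, at the far side, had 1.60 ± 0.51. Summed over 2 kb, the log2 fold change of Ptges was 1.29 and that of Ptgs2 was 0.43, both called higher, while Pla2g4a was at -0.65 and Ptger4 at -0.48, both called lower. Of all tested 2-kb gene sums 10.2% were called higher and 12.9% lower. Over all windows, reads were also less concentrated at the centre with RANKL: the middle 200 bp took 33.9% to 36.5% of reads, against 39.9% to 41.0% for controls. The part of this in the member values was not tested.

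**Figure D4:**
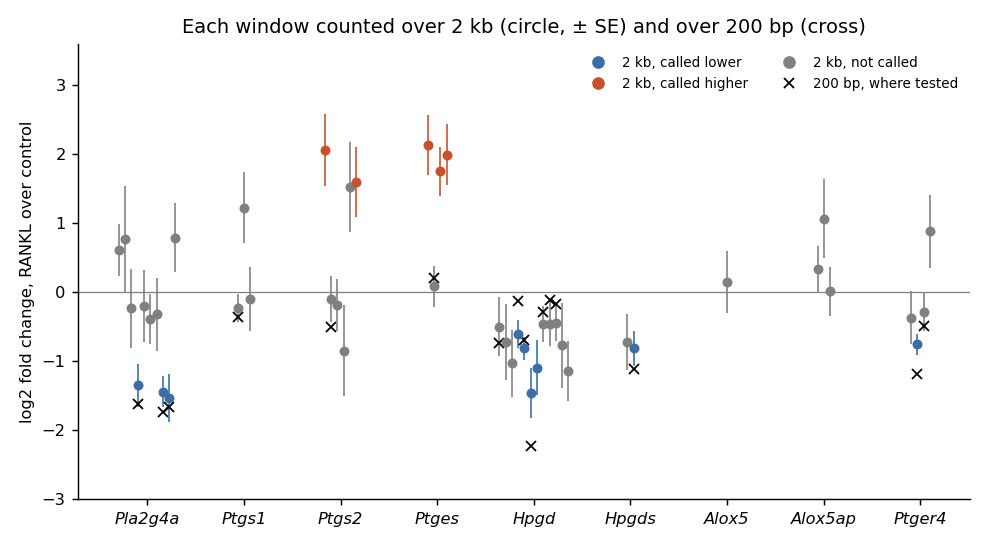
Log2 fold change, RANKL over control, of each member window over 2 kb (circles with SE, blue called lower, red called higher, grey not called) and over the central 200 bp (crosses, where deep enough to test). The 5 red circles belong to Ptges and Ptgs2, and where both widths gave a called value the 200-bp value is the more negative.

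Other genes of the pathway, listed by role and not members, were called in both directions. This list too was drawn up with earlier results of these data known, so the adjusted p-values given for its genes are descriptive. Of 64 listed genes 46 had a window and 37 could be tested as gene sums, of which 3 rose, 5 fell and 29 were not called, with a median log2 fold change of -0.13 against 0.01 over all 12901 gene sums. For comparison, 7.28% of all tested gene sums were called higher and 8.81% lower. Among phospholipases and arachidonate handling, 1 of 12 tested rose and 1 fell. Pla2g10, a secreted phospholipase, fell from 87.9, 102 and 68.9 CPM in controls to 58.1, 53.4 and 40.8 CPM (log2 fold change -0.87 ± 0.22, edgeR adjusted p = 0.0020), a call lost without RANKL replicate 3 (-0.68). Pla2g2e, another secreted phospholipase, rose from 11.0, 19.5 and 15.6 CPM to 33.6, 32.0 and 45.6 CPM (1.31 ± 0.39, edgeR adjusted p = 0.011), lost without control replicate 1 or RANKL replicate 3 (1.08 each). Lpcat3, which places arachidonate into phospholipids, had 0.33 ± 0.18 and was not called. Among synthases Prxl2b, a prostaglandin F synthase, rose by 0.61 ± 0.20 (edgeR adjusted p = 0.020), with all RANKL libraries (89.7 to 128 CPM) above all controls (53.4 to 75.8 CPM). That call was lost over 2 kb (0.28) and in 4 of the 6 fits that each left out a library, those without control replicate 1 (0.62), control replicate 3 (0.51), RANKL replicate 1 (0.49) or RANKL replicate 3 (0.64).

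Prostanoid and leukotriene receptors were listed as separate roles and are joined here. Of the 6 receptor sums tested 3 fell, where 8.81% of all gene sums did. With so few sums the count describes these genes only. The prostanoid receptors among them, with 5 tested, gave 2 of the falls, both for prostaglandin D2. Ptgdr read 119, 115 and 125 CPM in controls and 64.2, 74.7 and 72.1 CPM with RANKL (log2 fold change -0.73 ± 0.19, edgeR adjusted p = 0.0022). Ptgdr2 read 40.6, 26.6 and 40.0 CPM in controls and 15.3, 17.1 and 14.4 CPM with RANKL (-1.18 ± 0.40, edgeR adjusted p = 0.030), a call lost without control replicate 1 (-1.05), control replicate 3 (-1.12) or RANKL replicate 3 (-1.09). Oxgr1, the oxoglutarate receptor that has also been described as a receptor for leukotriene E4, fell by 0.80 on the log2 scale (SE 0.19, edgeR adjusted p = 0.0010) and was lower in 3 of 3 RANKL libraries than in any control. It was the only leukotriene receptor with enough counts to test.

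In prostaglandin breakdown and transport 1 of 5 genes fell. Abcc4, an exporter of prostaglandins, read 518, 498 and 529 CPM over 22 windows in controls and 404, 493 and 365 CPM with RANKL, or -0.30 ± 0.09 on the log2 scale (edgeR adjusted p = 0.013). The value was -0.02 once a trend with abundance was removed, and the call was also lost without control replicate 1 (-0.30) or RANKL replicate 3 (-0.18). Slco2a1, the prostaglandin uptake carrier, had -0.19 ± 0.16 and was not called. None of 6 leukotriene enzyme and transport genes was called, with Lta4h, the leukotriene A4 hydrolase, at -0.13 ± 0.15 and Cotl1, a protein that binds the Alox5 enzyme, at -0.04 ± 0.20. Of 2 other lipoxygenases tested Aloxe3, known from the skin barrier, rose by 1.80 ± 0.56 (edgeR adjusted p = 0.015) from control counts of 7, 6 and 3 in all. Its call was lost in 5 of the 6 fits that left out a library, the exception being control replicate 3, with values from 1.71 to 1.92.

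**Figure D5:**
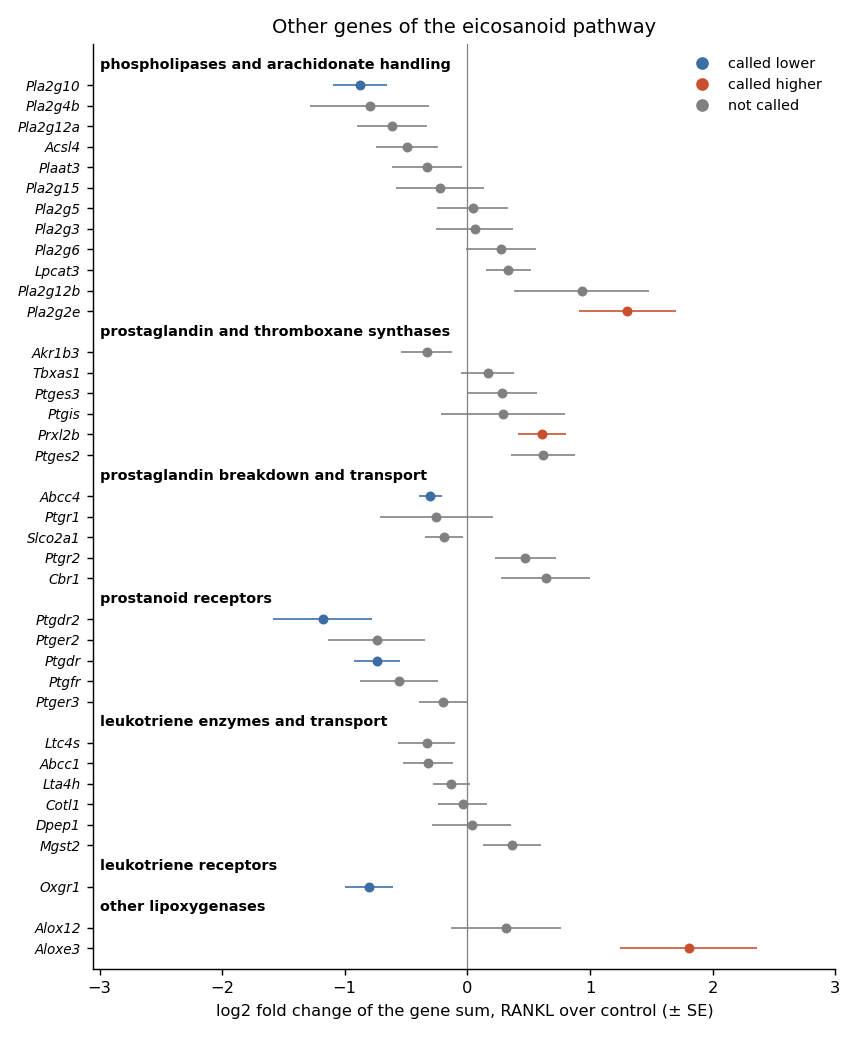
Log2 fold change with SE (n = 3 per group) of the 37 other tested pathway genes, grouped by role; blue marks a fall, red a rise and grey no call. The falls include the prostanoid receptors Ptgdr and Ptgdr2, and the leukotriene enzymes are all grey.

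Marker genes of cell types were read in the same way. Over all tested gene sums 7.28% were called higher and 8.81% lower. Tuft cell markers were split, as Sucnr1, Rgs13 and Gnat3 fell and Dclk1 and Sh2d6 rose among 9 tested of 15 listed. Their sum over all listed genes with a window was 600 to 630 CPM in controls and 456 to 536 CPM with RANKL, and Trpm5 and Il25 had no window. M cell markers rose in 3 of 5 tested (Sox8, Marcksl1 and Tnfrsf11a), from sums of 269 to 323 CPM to 486 to 581 CPM. Sox8 rose from control counts of only 3, 2 and 0. Epithelial markers fell in 2 of 6 tested (Epcam and Krt18), with sums of 842 to 890 CPM in controls and 683 to 844 CPM with RANKL. Haematopoietic markers had sums of 62.5 to 74.7 CPM in controls and 61.2 to 91.8 CPM with RANKL, with none of 2 tested called and Cd3e, Cd79a, Lyz2, Cd68 and Fcer1g without a window. For mast cells, another known source of prostaglandin D2 and leukotrienes, 1 marker of 5 could be tested and rose (Mcpt2), from control counts of only 2, 5 and 4. The mast cell sums were 22.0 to 44.5 CPM in controls and 33.6 to 40.6 CPM with RANKL. Mesenchymal sums were 202 to 275 and 232 to 300 CPM, with 1 of 5 tested higher (Pdgfrb), and endothelial sums were 136 to 219 and 141 to 187 CPM, with none of 4 called. The sums of tuft and of M cell markers thus lay apart between the groups, although tuft markers were called in both directions. Epithelial, mast cell and mesenchymal markers also had calls, with sums that overlapped. The part of any of these cell types in the member values was not tested.

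For each member sum that could be tested, the most similar gene over the 6 libraries was found by the Pearson correlation of log2 CPM among the other 12900 genes. These were Cpq for Pla2g4a (r = 0.998), Uck2 for Hpgd (0.998), Spry2 for Ptger4 (0.997), Gpld1 for Hpgds (0.995), Cchcr1 for Ptges (0.998), Btbd19 for Alox5ap (0.990), Rpl29 for Ptgs1 (0.989) and Cbr4 for Ptgs2 (0.974). All points share the same 6 libraries and their depth, and between 9 and 224 genes reached a correlation over 0.95 with a member, so the likeness is a description only.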

How the data were processed

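The authors' main table, as deposited, holds whole-number read counts for 55056 windows of 200 bp in 6 ATAC-seq libraries. Their other table gives a deposited score for 2 kb around 55050 of the same centres, which its values show to be ln(count + 1), centred and scaled per library; recovered 2-kb counts missed whole numbers by at most 0.0084. Per the submitters' processing notes the tools named are MACS2 2.2.7, DESeq2 1.34.0, BWA 0.7.17, fastp 0.20.1 and Picard on mm10 or GRCm38; the notes give no order or role. For window placement, read shifting at the Tn5 cut and duplicate removal, no method is given in the sources used here. Reads were 38 bp long, per the labels' protocols.

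Windows were assigned to the nearest end of 21900 protein-coding genes (RefSeq, GRCm38.p6) within 100 kb and summed per gene. Both tables were tested over all features with edgeR 4.0.16 in R 4.3.3 (TMM, filterByExpr, robust quasi-likelihood fit, no covariates, Benjamini-Hochberg adjustment, threshold 0.05). SE is the absolute log2 fold change over the root of F. Alternatives used DESeq2 1.42.0, other scalings (limma 3.58.1 for loess offsets), no filter, 2-kb counts, 50 and 10 kb, a replicate block, and each library left out. On simulated counts the windows fit called 92 of 100 with a 4-fold difference, 38 of 100 with a 2-fold one and 9 of 19476 with none. For gene sums these were 100, 64, and 7 of 12349. Far fewer features were changed in the simulation than were called in the data, so these rates need not hold for the real fit.

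Members and lists were chosen with earlier results of these data known. The rule for named genes took all members, their called, nearest and strongest windows, other pathway genes whose sums were called and the 4 strongest uncalled ones, and the most similar gene of each member. Pla2g16 and Fam213b were looked up as Plaat3 and Prxl2b. The 4 motifs and the low windows given as examples were singled out after values were seen.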

Additional observations from a re-analysis of the deposited data

How the results depend on the processing

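All values are log2 fold changes or counts of calls. Pla2g4a, Hpgd and Ptger4 sums kept their call in every setting run. With DESeq2 989 windows were lower, 542 gene sums higher and 570 lower, 0 member sums were higher, and 1 other pathway gene was higher and 3 lower; the calls of Ptges, Hpgds, Pla2g4a window 9, Pla2g2e, Prxl2b, Abcc4 and Ptgdr2 were lost. Over 2 kb 4191 windows were higher and 5071 lower, 1606 gene sums higher and 2034 lower, 5 member windows higher, 2 member sums higher and 8 other pathway genes lower. Within 10 kb 518 gene sums were higher and 628 lower, 2 member windows were lower, and Lta4h was at 0.035; Ptgs2 was at -0.24 within 50 kb and -0.61 within 10 kb. The Ptgs1 sum was at 0.039 over 2 kb. Scaling gene sums by the window TMM factors, chosen after seeing the data, gave 1216 higher and 861 lower against 939 and 1136, and put Cotl1 at 0.028.

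Leaving out each library in turn gave 1347 to 2726 windows higher, 1467 to 2289 lower, 631 to 907 gene sums higher and 792 to 1073 lower. Member windows were higher in 0 to 1 and lower in 4 to 7, member sums higher in 0 to 1 and lower in 3 to 4, and other pathway genes higher in 0 to 2 and lower in 2 to 6. The Ptgs1 sum ranged from -0.26 to 0.052 (0.052 and 0.0099 without control replicates 1 and 2, 0.0059 without RANKL replicate 3), Ptgs2 from -0.20 to 0.52, Alox5ap from -0.057 to 0.50 (-0.027 without control replicate 1), Ptges window 2 from -0.058 to 0.32 and Cotl1 from -0.16 to 0.14. The cause of these changes was not tested.

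The labels number the experiments 1 to 3 in both groups, without saying that a number marks a shared culture or day. Deviations of same-numbered libraries correlated at -0.03, 0.01 and -0.01 over 21618 windows, so the numbers were not taken as pairs. With the replicate as a block, 1811 windows were higher and 1824 lower, 813 gene sums higher and 1018 lower, member calls were 6 windows and 5 sums, Ptgs1 was at 0.041 and Cotl1 at 0.014. Depth limits all single windows: 31 of 47 member windows were too low to test at 200 bp.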
